A study of Mus musculus with 6 samples.

Results

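The genes described here are 10 markers of the primitive endoderm, chosen by name as known genes of this lineage, with earlier results of these data known: Gata6, Gata4, Sox17, Sox7, Pdgfra, Dab2, Sparc, Lama1, Lamb1 and Col4a1. All 10 were found among the 16668 genes listed. RNA-seq was carried out on mES (mouse embryonic stem) cells of the E14 line, which is of 129/Ola origin and needs no feeders, all of them grown on gelatin in N2B27 medium with 2i (1 µM PD0325901, which blocks MEK, and 3 µM CHIR99021, which blocks GSK3) and 1000 U/ml LIF. By their labels the 6 libraries made up 3 groups of 2: control, listed as wild type and, per the study's methods, given a control siRNA; Ring1B-KD, knockdown of the H2A ubiquitin ligase Ring1B, whose gene is Rnf2; and Dzip3-KD, knockdown of the H2A ubiquitin ligase Dzip3. The study addressed whether these ligases hold down developmental genes in mES cells, and the primitive endoderm is 1 of the fates such genes serve.

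The primitive endoderm is the layer of the late blastocyst that lines the cavity beneath the epiblast and later forms the yolk sac endoderm. FGF signalling through the ERK kinases drives inner cell mass cells towards it, with Gata6 acting against Nanog, and blocking MEK holds cells in the epiblast state. Its markers include transcription factors, a receptor and an adaptor protein, and its mature cells lay down basement membrane made of laminins and type IV collagen.

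Expression is given as RPKM, the number of reads scaled to the exon length of the gene and to all mapped reads of the library, as the authors deposited it. Whole reads behind the values were recovered from their steps, with a depth of 3015349 to 3583612 mapped reads per library. Of the 10 markers, 5 had fewer than 10 reads in every library and are called at the counting limit: Gata6, Gata4, Sox17, Sox7 and Pdgfra. The other 5, Dab2, Sparc, Lama1, Lamb1 and Col4a1, had a mean of at least 0.5 RPKM and were tested among 11538 genes. Sparc gave most of the signal, with a mean of 60.3 RPKM over the 6 libraries against 3.57 for Lama1, 3.12 for Lamb1, 2.57 for Col4a1 and 0.831 for Dab2. The ranges of Lama1, Lamb1 and Col4a1 overlapped, so their order is not set by these data. In bulk RNA, a few cells with much of a transcript and many cells with little cannot be told apart.

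For 4 of the 6 libraries, the name of the file gave another condition than the sample label. Files 1 to 6 were labelled control 1, control 2, Ring1B-KD 1, Ring1B-KD 2, Dzip3-KD 1 and Dzip3-KD 2. Their names carried the words control, Ring1BKD and Dzip3KD for files 1 to 3, and again control, Ring1BKD and Dzip3KD for files 4 to 6. Label and word therefore matched in file 1 and file 6, which makes 2 libraries. Each comparison was made by label and, within files 1 to 3 and files 4 to 6, by file word. Group names are used for the label or the word alone, whatever was knocked down in a library. The study describes its RNA-seq duplicates as biological, while the labels name no separate cultures; with label and file word at odds, p-values measure only the spread between these libraries, part of which may be technical.

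The targeted genes bear on both groupings. Rnf2 was at 30.6, 20.4, 26.8, 28.8, 19.4 and 28.2 RPKM in files 1 to 6. By label its difference between Ring1B-KD and control was 0.15 (SE 0.24) on the log2(RPKM + 1) scale, with an adjusted p of 0.965 by limma. By file word it was lower in Ring1BKD than in control in both sets, at 0.668 and 0.674 times the control file, with a log2 difference of -0.55 (SE 0.13) and an adjusted p of 0.232. Dzip3 was at 2.24, 2.68, 1.18, 1.89, 1.70 and 1.31 RPKM. Its log2 difference from control was -0.47 (SE 0.24, adjusted p = 0.458 by limma) for the libraries labelled Dzip3-KD and -0.46 (SE 0.24, adjusted p = 0.902) for those labelled Ring1B-KD. By file word it was at 0.527 and 0.692 times the control file for Dzip3KD and at 1.19 and 0.899 times for Ring1BKD, with log2 differences of -0.45 (SE 0.21, adjusted p = 0.754 by limma) and 0.04 (SE 0.21, adjusted p = 0.973). Neither targeted gene passed the threshold in either grouping.

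The cells expressed the pluripotency network throughout. The 12 pluripotency genes examined were all tested and summed to 1302 to 1623 RPKM per library. Nanog lay between 194 and 291 RPKM, Sox2 between 131 and 184 RPKM and Pou5f1 between 248 and 433 RPKM, while Gata6, Gata4, Sox17 and Sox7 stayed at or below 0.713 RPKM.

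The 4 transcription factors among the markers had few reads. Gata6, the zinc finger factor that specifies the primitive endoderm, lies on the plus strand of chromosome 18 from 11052508 to 11085633 (mm9). It had 3, 4, 4, 0, 1 and 1 reads in files 1 to 6, or 0.311, 0.365, 0.371, 0, 0.0958 and 0.0874 RPKM. Files 1 to 3 thus held 11 reads and files 4 to 6 held 2, a depth-corrected ratio of 0.176 with an exact 95% interval of 0.0189 to 0.806 that covers counting error only; this gene and split were singled out after the values were seen, with no adjustment. A count of 0 in the library labelled Ring1B-KD 2 allows a level of up to 0.284 RPKM (3 reads). By label, the Dzip3-KD libraries held 2 reads against 7 in the controls, a ratio of 0.269 with an interval of 0.0272 to 1.41, so no difference was detectable at this depth. By file word, Ring1BKD and Dzip3KD held 5 reads each against 3 in control, and the intervals again included no difference, at 0.306 to 10.1 and 0.295 to 9.75.

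Gata4, the related factor that follows Gata6 and remains on in extraembryonic endoderm, is a minus-strand gene of chromosome 14 (63817759 to 63890529, mm9). Its reads were 2, 6, 3, 8, 3 and 2, or 0.195, 0.516, 0.262, 0.713, 0.271 and 0.164 RPKM. The library labelled Ring1B-KD 2, whose file word is control, was the highest of the 6. Within the sets the file word Ring1BKD went both ways against control, at 2.64 times in files 1 to 3 and 0.379 times in files 4 to 6.

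Sox17, an HMG box factor of endoderm (chromosome 1, 4481009 to 4486494, minus strand), had 2, 1, 4, 0, 1 and 1 reads, at most 0.290 RPKM. Sox7, its close relative in the SoxF group (chromosome 14, 64562511 to 64569569, plus strand), had 0, 0, 1, 1, 1 and 1 reads. Both libraries labelled control were at 0 for Sox7, which allows up to 0.305 and 0.268 RPKM, levels above the 0.0854 to 0.0937 RPKM of the libraries with 1 read. No fold is given for Sox7, since every library was under that limit.

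Pdgfra, the receptor for PDGF that marks primitive endoderm precursors, lies on the plus strand of chromosome 5 from 75548316 to 75594229. It had the most reads of the 5 genes at the counting limit, with 6, 9, 6, 2, 4 and 6, or 0.295, 0.389, 0.264, 0.0898, 0.182 and 0.249 RPKM. The libraries labelled Dzip3-KD held 10 reads against 15 in those labelled control, a ratio of 0.627 with an exact interval of 0.252 to 1.49. For the libraries labelled Ring1B-KD the ratio was 0.515 (interval 0.189 to 1.29). No grouping gave an interval that left out equality for Pdgfra.

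**Figure D1:**
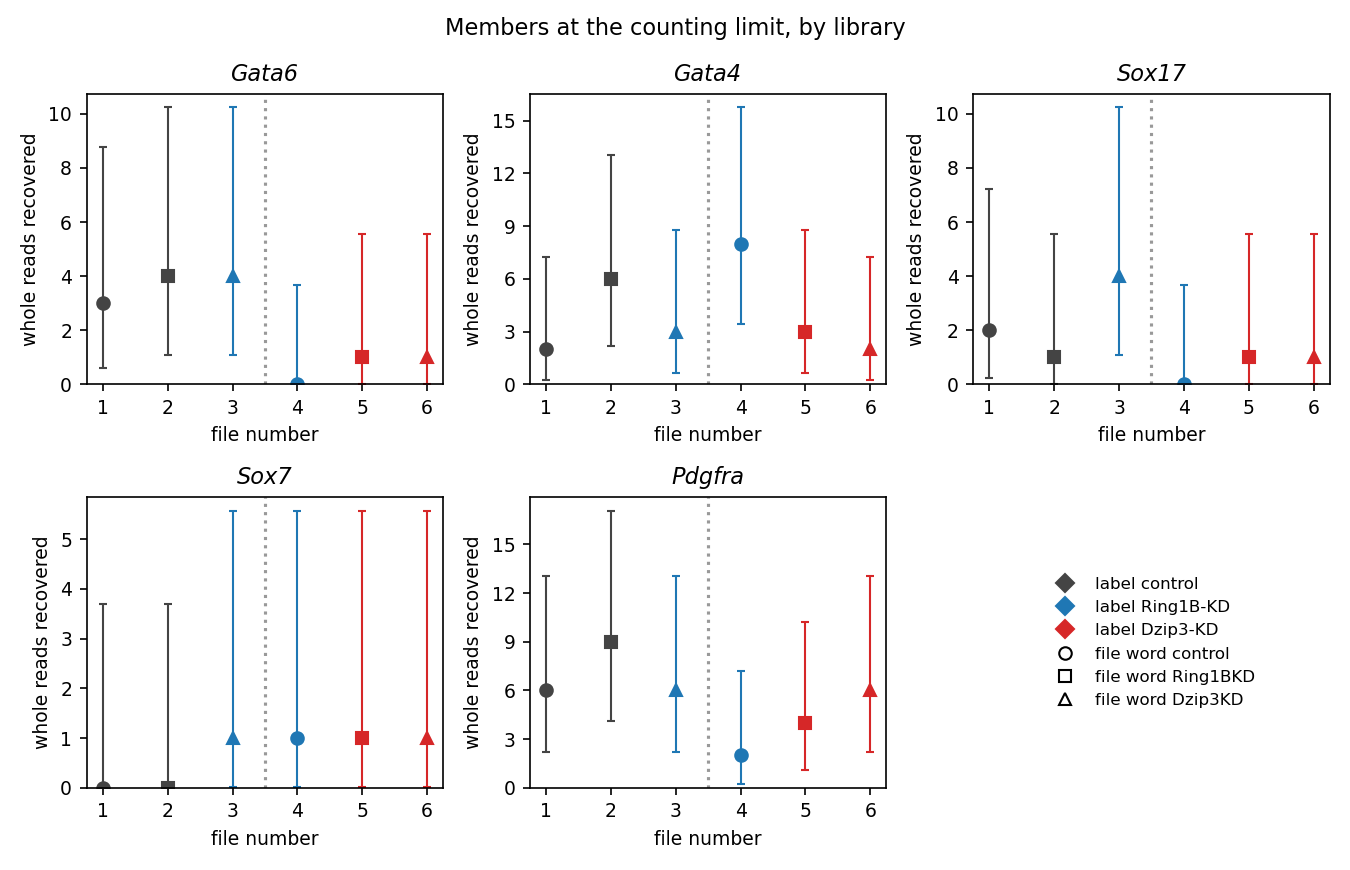
Whole reads recovered (vertical axis) for the 5 markers at the counting limit in files 1 to 6 (horizontal axis); colour gives the label, shape the file word, bars the exact 95% Poisson interval, and the dotted line parts files 1 to 3 from files 4 to 6. No library exceeds 9 reads for any of these genes, and for Gata6 files 1 to 3 hold 3 to 4 reads against 0 to 1 in files 4 to 6.

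Dab2 is a clathrin adaptor needed for the primitive endoderm to form an outer layer. Besides Sparc, Lama1, Lamb1 and Col4a1 it was the only marker above the filter. It is a plus-strand gene of chromosome 15 (6249788 to 6390712, mm9). It was at 0.788, 1.39, 1.60, 0.196, 0.529 and 0.482 RPKM in files 1 to 6, from 11, 22, 25, 3, 8 and 8 reads. All 3 libraries of files 4 to 6 lay below all 3 of files 1 to 3, with means of 0.403 ± 0.180 and 1.26 ± 0.421 RPKM (SD, n = 3). Within each set the control file was the lowest. The file word Ring1BKD was at 1.76 and 2.70 times control, and the file word Dzip3KD at 2.03 and 2.46 times control. In the fit by file word the differences were 0.39 (SE 0.21, adjusted p = 0.654 by limma) and 0.43 (SE 0.21, adjusted p = 0.754) on the log2(RPKM + 1) scale. By label the signs were opposite, at -0.23 (SE 0.36, adjusted p = 0.965 by limma) for Ring1B-KD and -0.46 (SE 0.36, adjusted p = 0.606) for Dzip3-KD. Both libraries labelled control are in files 1 to 3. With the file set as a block in the label fit, the Dab2 differences became 0.333 for Ring1B-KD and 0.665 for Dzip3-KD. The library labelled Ring1B-KD 1 was the highest and Ring1B-KD 2 the lowest of all 6. None of these differences passed the threshold.

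The matrix genes held the most reads of the markers, with 345 to 3197 over the 6 libraries against 77 for Dab2. Sparc, a secreted collagen-binding glycoprotein abundant in parietal endoderm, is a minus-strand gene of chromosome 11 (55208002 to 55233582, mm9). It was at 42.7, 45.4, 44.9, 70.5, 84.3 and 74.4 RPKM in files 1 to 6, from 340 to 727 reads. Files 4 to 6 were all above files 1 to 3, with means of 76.4 ± 7.11 and 44.3 ± 1.43 RPKM (SD, n = 3). By label the means were 44.0 ± 1.89 RPKM in control, 57.7 ± 18.1 RPKM in Ring1B-KD and 79.3 ± 6.99 RPKM in Dzip3-KD (SD, n = 2 each). The difference between Dzip3-KD and control was 0.83 (SE 0.22) on the log2(RPKM + 1) scale, with an adjusted p of 0.302 by limma. The libraries labelled Ring1B-KD were split, 1 at the level of the controls and 1 at 70.5 RPKM, and their difference from control was 0.35 (SE 0.22, adjusted p = 0.908 by limma). Within a set the file words were close together. The ratio to the control file was 1.06 and 1.20 for Ring1BKD and 1.05 and 1.06 for Dzip3KD, and neither difference passed the threshold (adjusted p = 0.749 and 0.927 by limma).

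Lama1 and Lamb1 encode the alpha 1 and beta 1 chains of laminin-111, the first laminin of the embryo. Lama1 (chromosome 17, 68046605 to 68171985, plus strand) was at 3.94, 3.46, 3.74, 3.24, 3.09 and 3.96 RPKM, from 96 to 135 reads. Its range in control overlapped that of each knockdown group, both by label and by file word. The values of the file words Ring1BKD (3.09 to 3.46 RPKM) and Dzip3KD (3.74 to 3.96 RPKM) did not overlap, but the counting intervals of these libraries did. The difference between these file words was 0.18 (SE 0.18, adjusted p = 0.794 by limma). The share of all genes tested whose values lay apart in this way was not counted. The largest difference of Lama1 from control was -0.10 (SE 0.18, adjusted p = 0.908 by limma) for the file word Ring1BKD. On reads, the ratio of Dzip3-KD to control by label was 0.962 with an exact interval of 0.797 to 1.16.

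Lamb1 (chromosome 12, 31950099 to 32014509, plus strand) did not follow its partner. It was at 2.01, 1.82, 2.31, 3.19, 4.29 and 5.07 RPKM in files 1 to 6, from 35 to 105 reads. Both libraries of each labelled knockdown were above both controls, with means of 1.91 ± 0.136 RPKM for control, 2.75 ± 0.626 RPKM for Ring1B-KD and 4.68 ± 0.551 RPKM for Dzip3-KD (SD, n = 2 each). The difference from control was 0.36 (SE 0.22, adjusted p = 0.905 by limma) for Ring1B-KD and 0.96 (SE 0.22, adjusted p = 0.300) for Dzip3-KD. By file word, Dzip3KD was at 1.15 and 1.59 times the control file, and Ring1BKD at 0.904 and 1.34 times, with log2 differences of 0.34 (SE 0.20, adjusted p = 0.784 by limma) and 0.12 (SE 0.20, adjusted p = 0.899).

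Col4a1, the alpha 1 chain of type IV collagen, had the widest relative spread of the matrix markers. It is a minus-strand gene of chromosome 8 (11198423 to 11312826, mm9). In files 1 to 6 it was at 0.953, 0.793, 1.66, 3.84, 3.42 and 4.77 RPKM, with 19, 18, 37, 84, 74 and 113 reads. The label means were 0.873 ± 0.113 RPKM for control, 2.75 ± 1.55 RPKM for Ring1B-KD and 4.10 ± 0.949 RPKM for Dzip3-KD (SD, n = 2 each), and the controls were the 2 lowest of the 6 libraries. The log2 difference was 0.94 (SE 0.31, adjusted p = 0.902 by limma) for Ring1B-KD and 1.43 (SE 0.31, adjusted p = 0.300) for Dzip3-KD. By file word the 2 comparisons had opposite signs. Ring1BKD was at 0.833 and 0.891 times the control file and Dzip3KD at 1.74 and 1.24 times, with log2 differences of -0.13 (SE 0.19, adjusted p = 0.883 by limma) and 0.35 (SE 0.19, adjusted p = 0.774).

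Col4a2, which encodes the chain that assembles with Col4a1, starts on the opposite strand beside it (chromosome 8, 11312805 to 11449287, plus strand, mm9). Its reads were 5, 5, 11, 27, 26 and 19 in files 1 to 6, again low in files 1 to 3 and higher in files 4 to 6. By file word it went both ways for Dzip3KD, at 1.97 and 0.649 times the control file, unlike Col4a1. For Ring1BKD it was at 0.879 and 0.974 times. Both log2 differences were -0.03 (SE 0.24, adjusted p = 0.991 and 0.983 by limma). The ratio of files 4 to 6 over files 1 to 3 on reads was 3.32 (exact interval 2.02 to 5.68) for Col4a2 and 3.54 (2.73 to 4.64) for Col4a1. The start regions of the pair are shown because the genes share them: the RefSeq start sites on GRCm38.p6 are 21 bp apart, and each window of 250 bases before and 50 after a start site holds 78 bases of the other. Each window is written 5′ to 3′ on its own gene's strand, with the shared bases in capitals. The Col4a1 window is chr8:11312777-11313076 on the minus strand and the Col4a2 window chr8:11312555-11312854 on the plus strand.
Col4a1: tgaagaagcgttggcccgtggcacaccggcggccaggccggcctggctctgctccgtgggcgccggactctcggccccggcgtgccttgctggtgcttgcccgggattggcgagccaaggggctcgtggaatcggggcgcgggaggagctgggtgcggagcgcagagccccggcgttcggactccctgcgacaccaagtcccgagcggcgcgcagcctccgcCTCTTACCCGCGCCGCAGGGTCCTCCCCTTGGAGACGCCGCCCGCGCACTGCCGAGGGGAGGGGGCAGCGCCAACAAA
Col4a2: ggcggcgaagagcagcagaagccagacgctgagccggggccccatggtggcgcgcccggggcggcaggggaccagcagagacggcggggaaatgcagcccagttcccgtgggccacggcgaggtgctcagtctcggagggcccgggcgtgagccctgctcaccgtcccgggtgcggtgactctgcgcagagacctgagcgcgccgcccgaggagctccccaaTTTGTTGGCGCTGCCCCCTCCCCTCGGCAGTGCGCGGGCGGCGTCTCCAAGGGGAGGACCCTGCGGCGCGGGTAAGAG
These windows were 74.0% and 73.7% G or C, against a median of 52.7% over all 32851 windows of that length. Of the 5 markers with a RefSeq window (Col4a1, Dab2, Lamb1, Pdgfra and Sparc), the letters GGGCGG were found on either strand in Lamb1 and Col4a1, and in 35.7% of all windows. The letters AGATAA, the core that GATA factors bind, were found in Dab2 and in 11.2% of all windows, and TATAAA in 0 of the 5 and in 13.6% of all windows. A match is a description of the letters and not of a bound site.

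**Figure D2:**
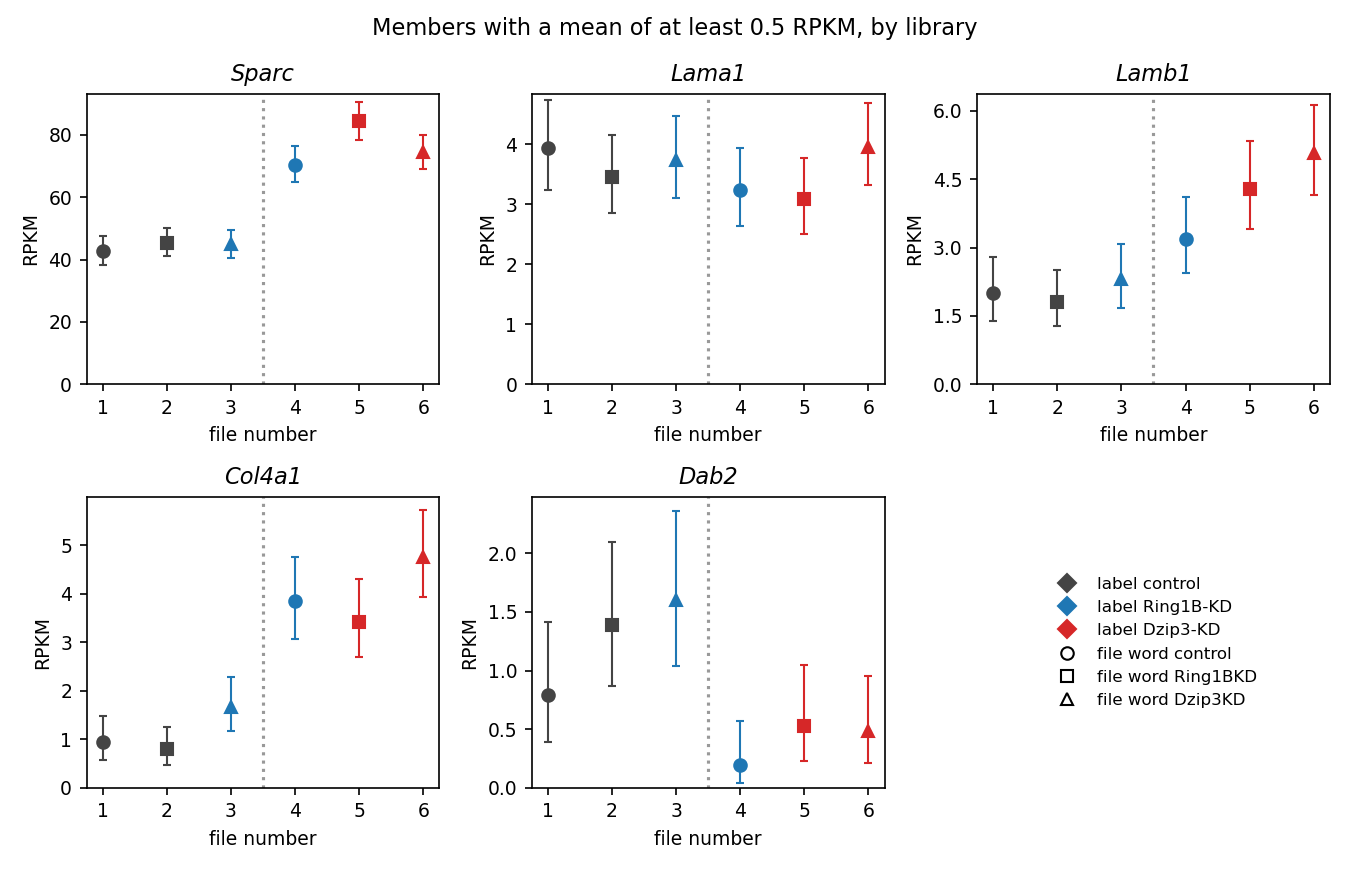
RPKM (vertical axis) of the 5 tested markers in files 1 to 6 (horizontal axis); colour gives the label, shape the file word, bars the exact 95% Poisson interval of the reads, and the dotted line parts files 1 to 3 from files 4 to 6. Sparc, Lamb1 and Col4a1 are higher in every file of 4 to 6 than in every file of 1 to 3, Dab2 is lower, and Lama1 overlaps.

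Counted over the 5 tested markers, the label comparison placed Lamb1 and Col4a1 with both Ring1B-KD libraries above both controls, where 14.9% of all genes tested did the same, and 0 markers with both below, against 18.9%. For Dzip3-KD it placed 3 markers above both controls (Sparc, Lamb1 and Col4a1), against 20.4% of all genes, and 1 below (Dab2), against 30.3%. By file word, Ring1BKD was above the control file in both sets for Dab2 and Sparc, against 18.5% of genes, and below it for Lama1 and Col4a1, against 40.6%. Dzip3KD was above the control file in both sets for 4 markers (Dab2, Sparc, Lamb1 and Col4a1), against 22.3%, and below it for 0, against 29.5%. The median difference of the 5 markers was 0.34 (log2) for the file word Dzip3KD, beside -0.03 over all genes tested, and 0.12 beside -0.08 for Ring1BKD, and by label it was 0.83 beside -0.07 for Dzip3-KD and 0.35 beside -0.02 for Ring1B-KD.

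With the adjusted p under 0.05, 0 of the 5 markers passed in any of the 6 comparisons between groups. By label 0 genes of 11538 passed in Ring1B-KD against control, in Dzip3-KD against control and in Dzip3-KD against Ring1B-KD (limma, with 589, 1411 and 534 genes at an unadjusted p under 0.05). By file word 0.416% of genes passed for Ring1BKD against control, 0.676% for Dzip3KD against Ring1BKD and 0 for Dzip3KD against control, the last with 752 genes at an unadjusted p under 0.05. Voom weights on recovered reads and a one-way model without moderation also gave 0 genes by label, and for Dzip3KD against control by file word they gave 5 and 0. For Dzip3-KD against control by label, 25 or 27 genes passed without the library labelled Ring1B-KD 1 or Ring1B-KD 2, and no marker was among them, the smallest adjusted p of Sparc being 0.0600 over the alternatives and that of Col4a1 0.0597 (limma). The comparisons against control share the control libraries.

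**Figure D3:**
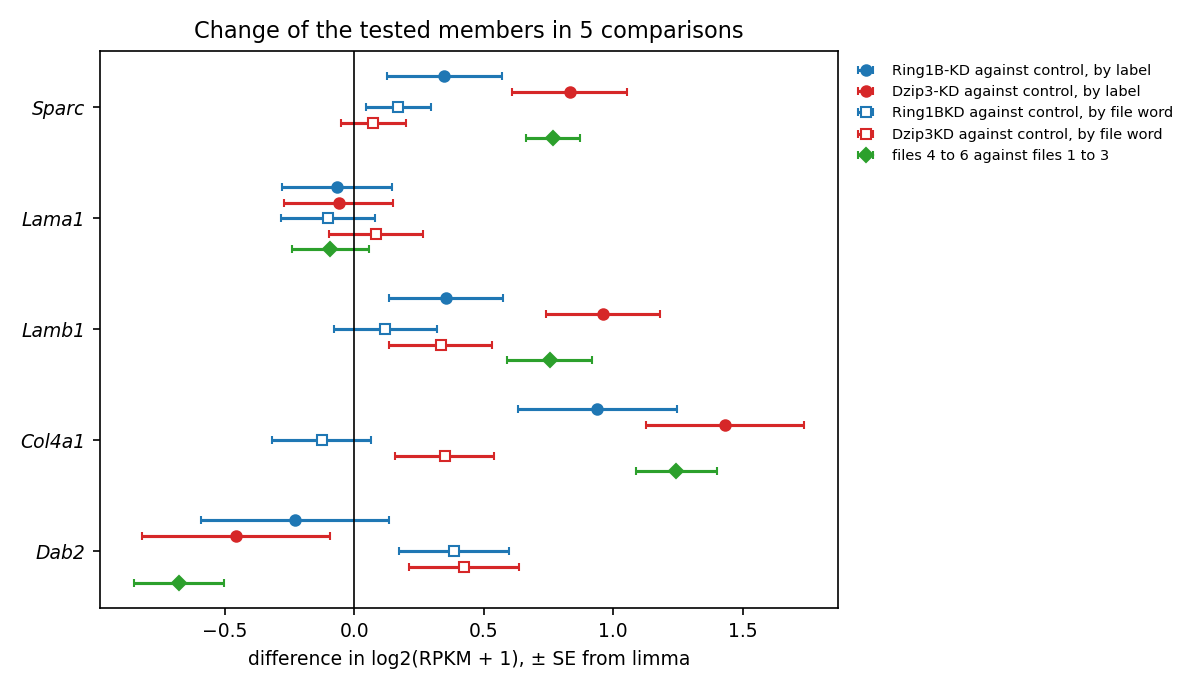
Difference in log2(RPKM + 1) with its SE from limma (horizontal axis) for each tested marker (vertical axis) in 5 comparisons: filled circles by label, open squares by file word, diamonds for files 4 to 6 against files 1 to 3. The file word squares lie between -0.13 and 0.43, while the diamonds of Sparc, Lamb1 and Col4a1 lie at 0.77, 0.76 and 1.24.

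The separation that the values by library show is between files 1 to 3 and files 4 to 6, and it was added as a comparison after these values had been seen. Each set holds all 3 file words, and the fit by file word gives the difference between sets as its block term. Col4a1 rose by 1.24 (SE 0.16, adjusted p = 0.00809 by limma), Sparc by 0.77 (SE 0.10, adjusted p = 0.0103) and Lamb1 by 0.76 (SE 0.16, adjusted p = 0.0319) on the log2(RPKM + 1) scale. Thus 3 of 5 tested markers were called higher and 0 lower, where 3.94% of all genes tested were called higher and 3.67% lower. All 3 files of 4 to 6 were above all 3 of 1 to 3 for those 3 markers, against 13.1% of all genes, and below for Dab2, against 15.5%. Dab2 gave -0.68 (SE 0.17, adjusted p = 0.0541 by limma) and Lama1 -0.09 (SE 0.15, adjusted p = 0.735). Both libraries labelled control are in files 1 to 3 and both labelled Dzip3-KD in files 4 to 6, so by label the set and the Dzip3-KD group can be separated only through the Ring1B-KD libraries, 1 of which is in each set. With the set as a block in the label fit, the Dzip3-KD differences became 0.19 (SE 0.23) for Sparc, 0.62 (SE 0.33) for Lamb1 and 0.57 (SE 0.38) for Col4a1, with adjusted p of 0.922, 0.840 and 0.858 by limma, against 0.83, 0.96 and 1.43 without it. The Ring1B-KD differences became 0.03 (SE 0.16) for Sparc, 0.19 (SE 0.24) for Lamb1 and 0.51 (SE 0.27) for Col4a1, with adjusted p of 0.974, 0.870 and 0.673 by limma. The calls rest on moderation of the variance and on the filter on low values, since 0 genes passed without either (smallest adjusted p 0.137 and 0.0937), and Lamb1 was no longer called when any of control 2, Ring1B-KD 1, Dzip3-KD 1 or Dzip3-KD 2 was left out (adjusted p 0.0976 to 0.121 by limma).

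**Figure D4:**
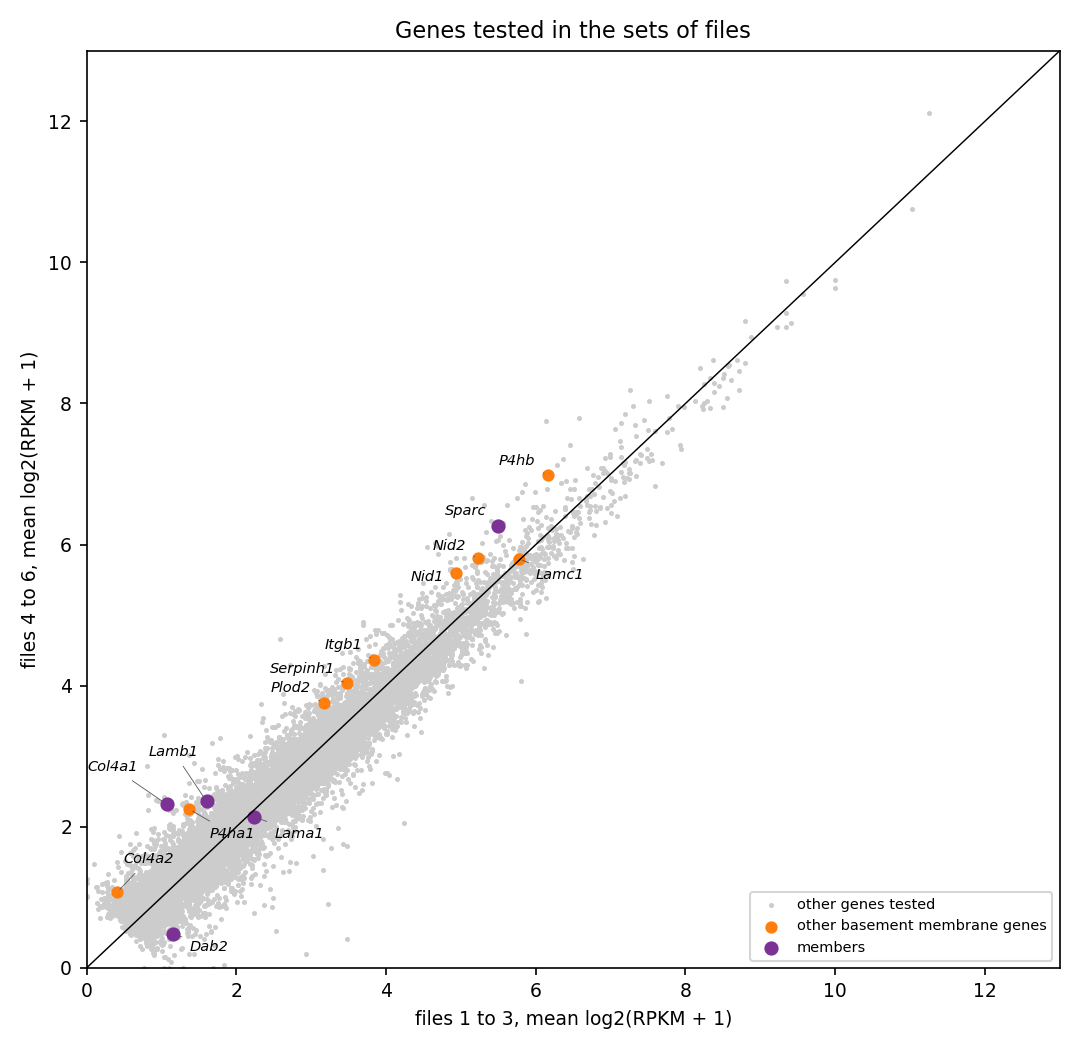
Mean log2(RPKM + 1) of files 1 to 3 (horizontal axis) and of files 4 to 6 (vertical axis) for the 11538 genes tested, 1 point per gene, with equality as the line; the 5 tested markers are in purple, and Col4a2, Lamc1 and the 7 other basement membrane genes called between the sets in orange. Sparc, Lamb1 and Col4a1 lie above the line, Lama1 close to it and Dab2 below it.

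Among the other genes of the basement membrane and of collagen assembly, 19 were listed and 18 tested. Between the sets 7 of 18 were called higher and 0 lower, where 3.94% and 3.67% of all genes tested were. Of the 18 differences 16 were above 0, as were 44.7% of those of all genes tested, and the median was 0.49 beside -0.04. The markers and this list were chosen with earlier results of these data known. The nidogens, which link laminin to type IV collagen, were both among the called genes, with Nid1 at 25.5 to 33.0 RPKM in files 1 to 3 and 39.8 to 55.1 RPKM in files 4 to 6 (0.66, adjusted p = 0.0141 by limma) and Nid2 at 0.57 (adjusted p = 0.0240). So were some enzymes and a chaperone of collagen folding. P4ha1 and P4hb, subunits of prolyl 4-hydroxylase, rose by 0.88 and 0.82 (adjusted p = 0.0209 and 0.0139 by limma). The lysyl hydroxylase Plod2 rose by 0.59 (adjusted p = 0.0383 by limma) and the collagen chaperone Serpinh1 by 0.55 (adjusted p = 0.0447). P4ha2, Plod1 and Plod3, also on the list, were not called, at 0.20, 0.48 and 0.49 (adjusted p = 0.652, 0.0867 and 0.131 by limma). Itgb1, the integrin subunit of most laminin and collagen receptors, rose by 0.53 (adjusted p = 0.0322 by limma).

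Laminin chains other than Lamb1 were not among the called genes, and Lama5 and Itga5 had differences of -0.31 and -0.25 (adjusted p = 0.244 and 0.464 by limma). Lamc1, the gamma 1 chain of laminin-111, was at 51.2 to 58.8 RPKM in all 6 libraries with a difference of 0.03 (SE 0.11, adjusted p = 0.884 by limma) between the sets. Per length, Lamc1 was therefore well above Lama1 and Lamb1 in every library. Col4a2 gave 0.67 (SE 0.20, adjusted p = 0.0809 by limma). By label, the list gave a median of 0.46 for Dzip3-KD against control with 16 of 18 above 0 and 0 called, and 0.13 for Ring1B-KD. By file word its medians were 0.04 for Ring1BKD and -0.03 for Dzip3KD, with 0 called.

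**Figure D5:**
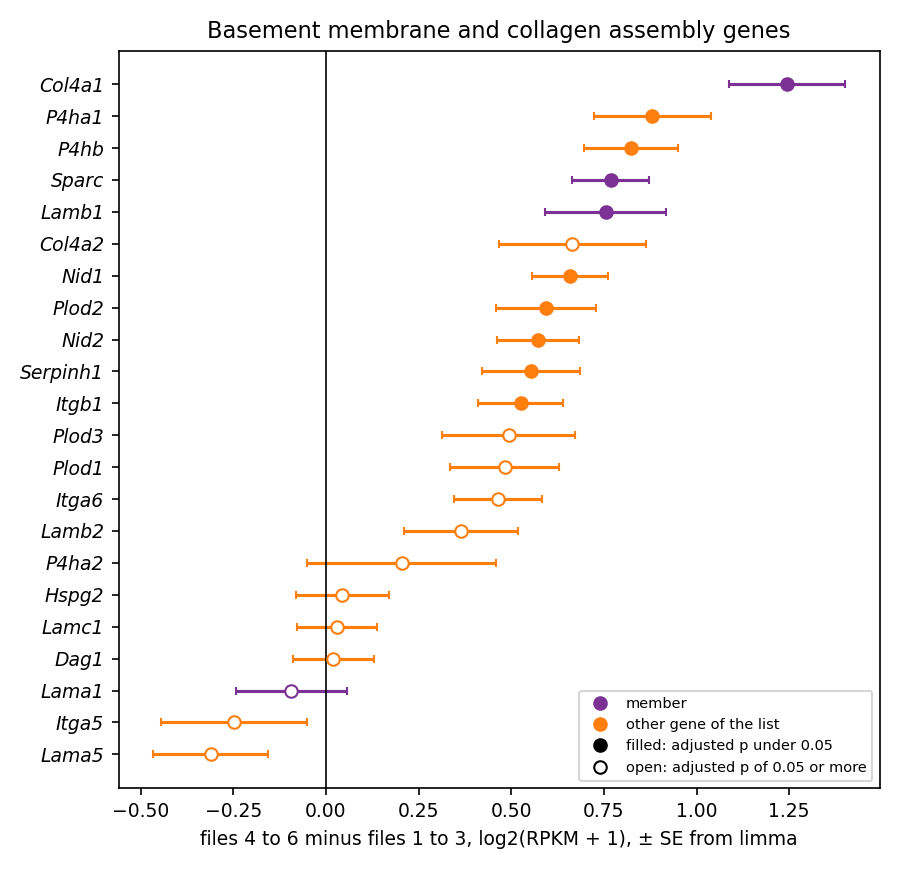
Difference between files 4 to 6 and files 1 to 3 in log2(RPKM + 1) with its SE from limma (horizontal axis) for the matrix markers (purple) and the other genes of basement membrane and collagen assembly tested (orange); filled points have an adjusted p under 0.05. Col4a1 is the highest at 1.24, and Lama1 and Lamc1 lie near 0.

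The remaining genes of the lineage list gave no call. Of 15 transcription factors and early genes of the primitive endoderm, 7 were tested and 7 had under 10 reads in every library, Foxa2 with 1 read in all. Of the tested ones 0 passed in any comparison. Fgfr2, a receptor for FGF in the primitive endoderm, was at 0.124, 0.273, 0.222, 0.679, 0.802 and 3.03 RPKM in files 1 to 6, with a difference of 1.17 (SE 0.38, adjusted p = 0.322 by limma) for Dzip3-KD against control by label and 0.93 (SE 0.26, adjusted p = 0.0703) between the sets. The library labelled Dzip3-KD 2 alone held 58 of its 95 reads. Fgfr1 gave 0.41 (adjusted p = 0.454 by limma) in the same comparison, and Klf5 gave 0.40 (adjusted p = 0.754) for the file word Dzip3KD. Klf5 and Sall4, which pluripotent cells also express, were at 47.2 to 96.7 and 30.2 to 39.3 RPKM. Hhex gave -0.41 (adjusted p = 0.0999 by limma) between the sets.

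Most listed markers of the mature derivatives had few reads, and the parietal ones called between the sets moved apart. Of 15 visceral endoderm genes 10 were listed and 1 was tested, Apoe, at 184 to 264 RPKM, which mES cells also express; 8 of the 10 had under 10 reads in every library. Of 9 parietal endoderm genes 5 were tested. Between the sets Srgn, a secretory granule proteoglycan, was called higher, from 1.24 to 2.21 RPKM in files 1 to 3 to 6.13 to 6.85 RPKM in files 4 to 6 (1.47, adjusted p = 0.00564 by limma). Krt8, Snai1 and Vim, which encode 2 intermediate filament proteins and a zinc finger factor, were called lower, at -1.14, -0.81 and -0.52 (adjusted p = 0.0199, 0.0290 and 0.0238 by limma). Srgn and Krt8 rested on few reads in the lower set. In files 1 to 6 Srgn had 5, 4, 7, 19, 21 and 22 reads, and Krt8 had 11, 25, 8, 3, 4 and 2. Krt18, with at most 6 reads in a library, gave 0.12 (adjusted p = 0.727 by limma), and Plat, Thbd, Pth1r and Krt19 had under 10 reads in every library and were not tested.

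Markers of other cells that make matrix were examined because Sparc, Lamb1 and Col4a1 are not particular to endoderm. Of 14 fibroblast or feeder genes 10 were listed and 3 tested, 7 had under 10 reads in every library, and 0 were called in any comparison. Their summed level was 5.74 to 6.76 RPKM in files 1 to 3 and 7.16 to 7.87 RPKM in files 4 to 6. Of the 7 with few reads, Pdgfrb had at most 8 in a library, Col1a1 5, Col1a2 and Tagln 3, Loxl1 2, and Lum and Acta2 1. The tested ones were Thy1, Col5a1 and Fbln1, at 0.765 to 2.73, 0.776 to 1.62 and 2.03 to 3.49 RPKM. Thy1 had the smallest unadjusted p, with 0.64 (adjusted p = 0.902 by limma) for Ring1B-KD against control by label. Between the sets all 3 differences were above 0, at 0.25, 0.18 and 0.17 (adjusted p = 0.514, 0.551 and 0.579 by limma). Trophectoderm genes (6 tested) and mesendoderm genes (3 tested) likewise gave 0 calls, with Tfap2c at 0.64 (adjusted p = 0.388 by limma) and Cxcr4 at 0.60 (adjusted p = 0.418) for Dzip3-KD against control, and Ascl2 at -0.69 (adjusted p = 0.0720) between the sets. Among the pluripotency genes, Tdgf1 was called higher in files 4 to 6 (0.58, adjusted p = 0.0229 by limma) and Utf1, Tfcp2l1 and Esrrb lower (-0.67, -0.48 and -0.43, adjusted p = 0.0147, 0.0351 and 0.0404). The part of these genes in the marker differences was not tested.

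The genes closest in pattern to the matrix markers were sought by the Pearson correlation, over the 6 libraries, of log2(RPKM + 1) with that of the summed RPKM of Sparc, Lama1, Lamb1 and Col4a1, a sum that Sparc dominates. The highest were Casc4 (r = 0.9947), Kit (0.9943), Mfge8 (0.9936), Tmem18 (0.992) and Tmx1 (0.9908). The sum itself was 49.6 to 52.6 RPKM in files 1 to 3 and 80.7 to 95.1 RPKM in files 4 to 6. Genes picked for following it therefore average higher in files 4 to 6 by selection. Kit averaged 23.3 RPKM in files 1 to 3 and 39.1 RPKM in files 4 to 6, and Mfge8 24.1 and 41.4 RPKM. The correlation within a set was not tested. In all, 127 genes had r over 0.95, and no p-value is given.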

How the data were processed

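Per the study's methods, libraries of stranded mRNA were read on a MiSeq, aligned to mm9 with the Illumina pipeline and reduced by the authors to RPKM per gene, deposited as 1 list per library; the gene annotation was not given in the sources used here. The members and gene lists were chosen with earlier results of these data known. Whole reads were recovered for 15467 of 16668 genes (92.8%): low values are multiples of 1 read, and relative depths with GENCODE vM1 exon lengths on NCBIM37 (mm9) gave mapped reads, of which 974464 to 1152063 per library fell on these genes. The recovered length equalled an annotated transcript for 23.3% of genes, and 457 values above 0 but below 0.001 RPKM, less than 1 read, were taken as 0. Intervals and floors of 3 reads cover counting error only, since PCR duplicates cannot be told from molecules.

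Differences were tested with limma 3.58.1 (R 4.3.3, variance trend) on log2(RPKM + 1), a scale that understates changes of low genes, for the 11538 genes whose mean reached 0.5 RPKM, with Benjamini-Hochberg adjustment over all of them and a threshold of 0.05. One fit used the labels without covariates, as the study's one-way model did. The other used the condition word of the file name with the file set (1 to 3, 4 to 6) as a block. The label fit was main, because groups come from the labels. The code was tested on simulated data. Named genes were the 10 markers, both targeted genes, Pou5f1, Nanog and Sox2, genes of each list with an adjusted p under 0.05 or otherwise up to 3 with the smallest unadjusted p in the 4 comparisons against control, and the 5 genes most alike in pattern. Col4a2, Lamc1, Lama5, Itga5, P4ha2, Plod1, Plod3, Foxa2, Sall4, Hhex, Ascl2, Krt18, the parietal genes without a test and the fibroblast genes with few reads were named after their values were seen. Promoter windows are RefSeq sequence on GRCm38.p6, matched by symbol for 5 of 10 markers. Alternatives were another pseudocount, filter, scaling or model and each library left out.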

Additional observations from a re-analysis of the deposited data

How the results depend on the processing

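Of the values and calls of single markers, 351 kept their direction and side of the threshold, 13 turned direction, 10 lost their call and 1 gained it; of the counts of genes, 75 stayed within 1.5 times and 33 did not. The cause of these moves was not tested. Every direction that turned belonged to a difference without a call. With a library left out, the difference from control ranged from -0.788 to 0.333 for Dab2 and -0.146 to 0.013 for Lama1 in Ring1B-KD by label, from -0.199 to 0.079 for Lama1 in Dzip3-KD, from -0.087 to 0.327 for Lamb1 in Ring1BKD by file word and from -0.037 to 0.202 for Lama1 in Dzip3KD. With the file set as a block in the label fit, Dab2 became 0.333 and Lama1 0.013 for Ring1B-KD, and 0.665 and 0.099 for Dzip3-KD; Sparc, Lamb1 and Col4a1 kept their direction at 0.028, 0.185 and 0.506 for Ring1B-KD and 0.194, 0.619 and 0.567 for Dzip3-KD. At a common 75th percentile Lama1 became 0.001 for Dzip3-KD.

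Counts of genes moved as follows. Dzip3-KD against control by label gave 24 genes from only the 4 libraries compared and 0 to 27 with a library left out. Ring1BKD against control by file word gave 21 at a pseudocount of 0.1, 0 without the filter, 0 without moderation, 85 with voom weights, 0 without the set block and 3 to 61 with a library left out. Dzip3KD against control gave 5 with voom weights and 0 to 4 with a library left out. Dzip3KD against Ring1BKD gave 42, 0, 0, 152 and 0 under the same 5 settings, 172 from the 4 libraries compared and 26 to 172 with a library left out. Between the file sets 879 genes were called, 0 without the filter, 0 without moderation, 1715 with voom weights and 351 to 509 with a library left out. There Sparc, Lamb1 and Col4a1 kept their direction in all 14 alternatives each, with adjusted p of 0.0937, 0.127 and 0.0937 without the filter and 0.223, 0.267 and 0.213 without moderation. Dab2 passed only with voom weights (-1.58, adjusted p = 0.00527 by limma).

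Equal replicate numbers did not pair the libraries: deviations correlated at -0.036, -0.242 and 0.044, and the replicate block gave 0, 1 and 0 genes by label. Pairing the numbers of control and Dzip3-KD crosswise, chosen after seeing the data, gave 0. Depth limits Gata6, Gata4, Sox17, Sox7 and Pdgfra, which had at most 9 reads in a library.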
